A study of Rattus norvegicus with 35 samples.

Results

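The genes described here are those of the KLF2 program, of nitric oxide synthesis and of endothelin signalling: Klf2, Klf4, Nos3, Nos2, Thbd, Edn1, Ednra and Ednrb. They were taken by gene symbol wherever a probe set of the rat liver arrays carried that symbol alone, which gave 6 of the 8 genes and 12 probe sets, out of 13438 genes tested in all. Ednra and Ednrb, the receptors that receive the endothelin-1 signal, are not analysed here. The study asked what pre-treatment with simvastatin, a statin that inhibits HMG-CoA reductase, does to the liver of rats with biliary cirrhosis that lose blood and are resuscitated. Liver RNA was hybridised to 35 arrays in 6 groups. Simvastatin H/R (8 arrays) and simvastatin sham (5 arrays) were rats with a ligated and resected common bile duct that were given simvastatin in water by gavage, 5 mg per kg daily over the 3 days that preceded the study and for the last time 1 h before it. Ligated H/R (6 arrays) and ligated sham (5 arrays) had the same ligation without simvastatin, and the labels do not say whether they received a vehicle. Control H/R (6 arrays) and control sham (5 arrays) are labelled as controls, and whether they had a sham operation on the bile duct is not stated. H/R is hemorrhage followed by resuscitation, and sham rats went through a sham version of that procedure. All ligated rats were injected with vitamin K each week and taken for study 4 weeks after the operation, so the 4 ligated groups share ligation, vitamin K and time. Strain, sex and age are not given in the labels. Nothing in the labels says whether the arrays of a group come from separate animals, so a p-value here speaks of spread among arrays, part of which may be technical.

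KLF2 and its relative KLF4 are zinc finger transcription factors of the endothelium that are induced by laminar flow and by statins. In endothelial cells they are known to activate NOS3, the endothelial nitric oxide synthase that relaxes vessels, and THBD, thrombomodulin, a surface protein that turns thrombin towards activation of the anticoagulant protein C. They are also known to hold down EDN1, the precursor of the vasoconstrictor endothelin-1. In the cirrhotic liver, too little endothelial nitric oxide and too much endothelin-1 are known as parts of the raised resistance of the sinusoids, whose stellate cells contract to endothelin-1. NOS2 is the inducible nitric oxide synthase of inflammation, made by macrophages and hepatocytes after cytokines or endotoxin. The samples were whole liver, in which more cells of a type and more RNA per cell cannot be told apart.

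Values are normalized log2 signals, in which a difference of 1 is a doubling. A group was taken to lie at background when its mean did not exceed the mean, over its arrays, of the brightest of 23 probe sets designed against sequences foreign to the rat. That brightest probe set averaged 3.32 in simvastatin H/R, 3.26 in simvastatin sham, 4.00 in ligated H/R, 3.64 in ligated sham, 4.59 in control H/R and 4.51 in control sham. The controls thus had the higher background, and they also differed from the ligated groups in spiked control transcripts and in array medians. The log2 difference between the spiked bacterial transcripts bioD and bioB was 3.43 to 3.93 in the ligated arrays and 3.11 to 3.29 in the control arrays, and array medians were 4.06 to 4.29 and 3.97 to 4.02. With each array centred on its median, 3 members were called in ligated sham against control sham in place of 5. Otherwise the part of these array differences in the ligation results was not tested. Simvastatin sham replicate 1 stood apart from the other arrays: its 3′ probe set exceeded the 5′ probe set by 2.20 for Gapdh and by 4.30 for actin (log2), while the other arrays reached at most 0.34 and 2.34. Without it, a choice made after seeing the data, the calls of the members against control sham were kept, and Thbd joined them (difference 0.44, adjusted p = 0.049), which made 5 members in place of 4.

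Klf2, Klf4 and Thbd lay above background in all 6 groups. Edn1 lay above background in the 4 ligated groups, with or without simvastatin, and at background in control H/R (0 of 6 arrays above it) and control sham (1 of 5 arrays). Nos3 and Nos2 lay at background in all 6 groups. Under a looser background, the mean of the same nonspecific probe sets (2.11 to 2.37 by group, chosen after seeing the data), every measured member exceeded background in every group.

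**Figure D1:**
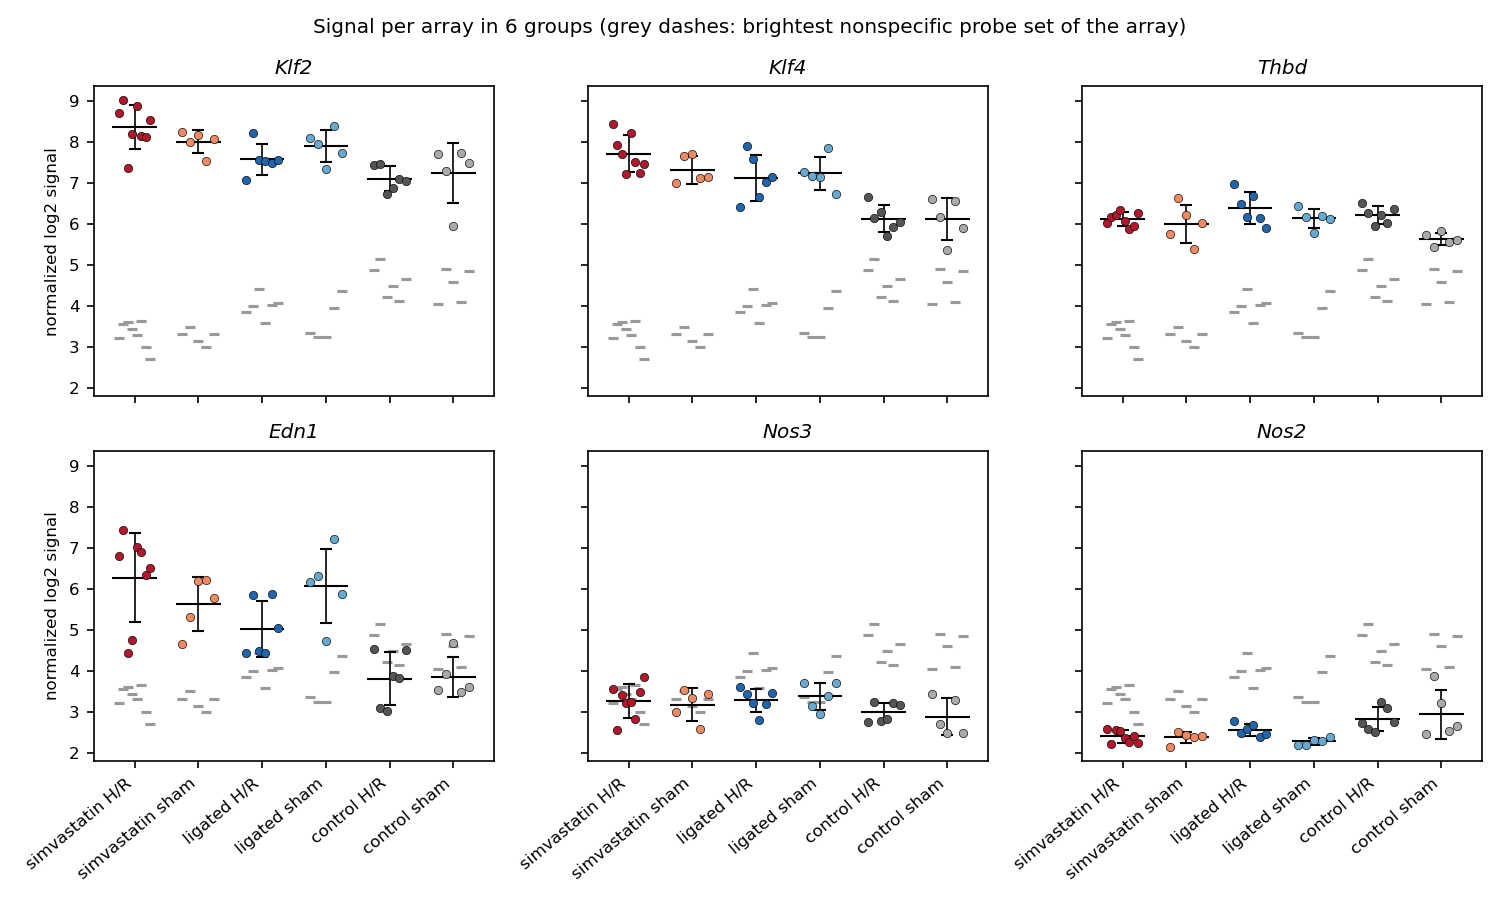
Normalized log2 signal (vertical axis) of the 6 measured genes in each of 35 arrays, by group (horizontal axis); points are arrays, bars are the group mean ± SD and grey dashes are the brightest nonspecific probe set of the same array. Klf2 and Klf4 sit highest in simvastatin H/R, and Edn1 lies above the dash of its array in every array of the 4 ligated groups. Most Nos3 points and all Nos2 points lie at or under the dashes.

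Members passed the test in the 3 comparisons of ligated with control livers and in no H/R or simvastatin comparison. In ligated sham against control sham livers, limma called 5 of the 6 members at an adjusted p under 0.05, where 47.6% of all genes were called. Klf2, Klf4, Thbd and Edn1 were higher (25.3% of all genes) and Nos2 was lower (22.4%). In simvastatin sham against control sham livers it called 4 of the 6, with 55.1% of all genes called: Klf2, Klf4 and Edn1 higher (28.6% of all genes) and Nos2 lower (26.5%). In ligated H/R against control H/R livers it called 2 of the 6, Klf4 and Edn1, both higher, where 47% of all genes were called and 24.7% were higher. For H/R, limma called 0 of 6 members in control rats (0.856% of all genes called; 1 member, Thbd, and 1635 genes at an unadjusted p under 0.05), 0 in ligated rats (0.134%; 1 member, Edn1, and 1401 genes) and 0 in simvastatin rats (0%; no member and 725 genes). For simvastatin against untreated ligated rats it called 0 of 6 in sham rats (0.781%; no member and 1453 genes) and 0 of 6 after H/R (1.35%; 3 members, Klf2, Klf4 and Edn1, and 1932 genes). The differences between H/R effects, of ligated against control rats and of simvastatin against ligated rats, called no member (0.00744% of all genes each; 0 and 1 members, and 734 and 654 genes, at an unadjusted p under 0.05).

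**Figure D2:**
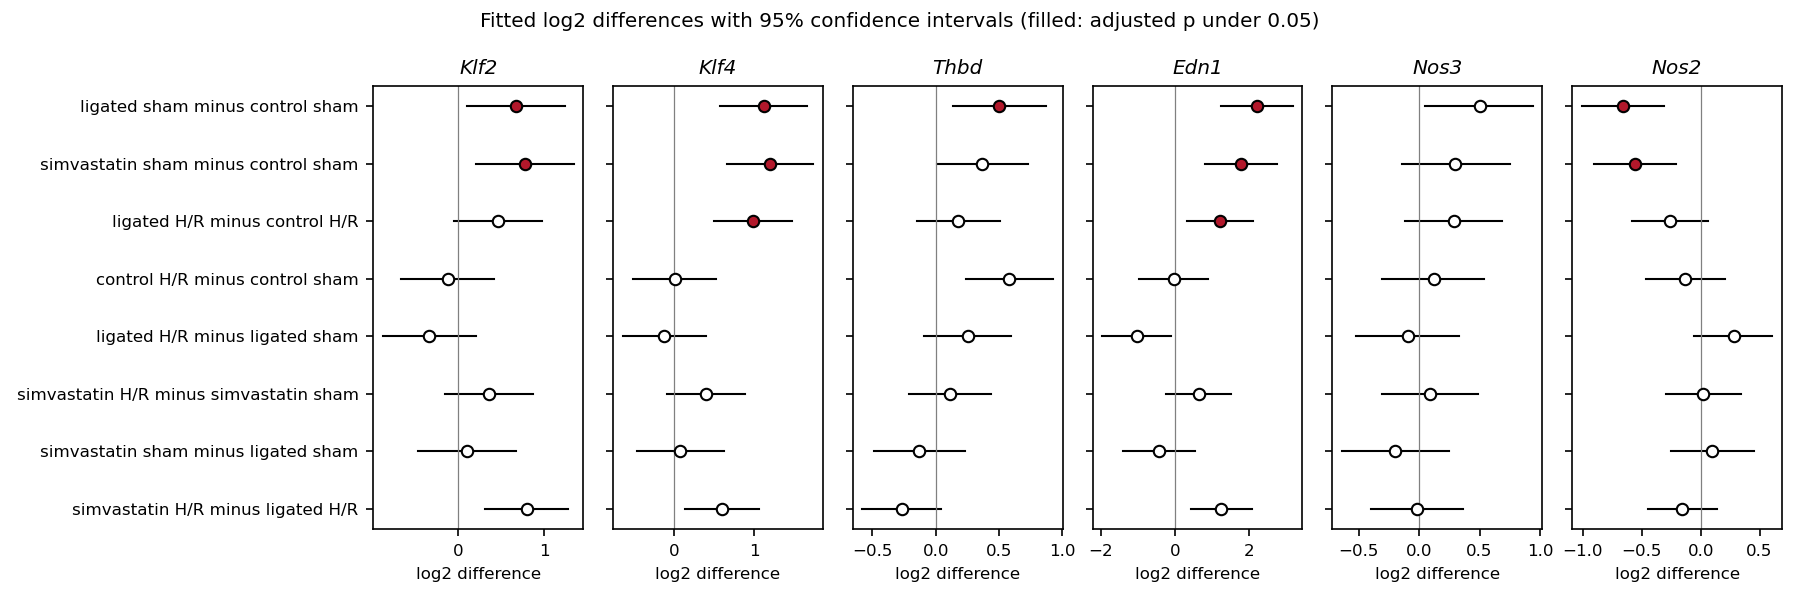
Fitted log2 difference (horizontal axis, a scale of its own for each gene) with its 95% confidence interval for 8 comparisons (vertical axis), first-named group minus second; filled points have an adjusted p under 0.05. Filled points occur in the first 3 rows only, the ligation comparisons, and in the last row the intervals of Klf2, Klf4 and Edn1 lie above 0 without reaching the adjusted threshold.

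Klf2 was read from probe set 1376569_PM_at, the brightest of its 5. Its signal after simvastatin and H/R ran from 7.37 over a median of 8.38 to 9.03. In simvastatin sham it was 8.26, 8.00, 8.19, 7.55 and 8.09. All but 1 of the simvastatin H/R arrays, replicate 3, were above 8.1, and both groups overlapped. Ligated H/R livers ran from 7.09 over a median of 7.55 to 8.24, and ligated sham livers had 8.10, 7.96, 7.36, 8.41 and 7.75. Control H/R livers ran from 6.74 over a median of 7.08 to 7.48, and control sham livers had 7.71, 7.31, 5.97, 7.73 and 7.49. The controls were lowest, with 1 sham array far below the others, and the ligated and control sham ranges overlapped.

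Averaged, Klf2 stood at 8.38 ± 0.53 in simvastatin H/R (SD, n = 8), 8.02 ± 0.28 in simvastatin sham (n = 5), 7.58 ± 0.37 in ligated H/R (n = 6), 7.92 ± 0.39 in ligated sham (n = 5), 7.12 ± 0.30 in control H/R (n = 6) and 7.24 ± 0.73 in control sham (n = 5). No pair of neighbours in the order of these means differed beyond its spread. Klf2 rose 1.60-fold in ligated sham against control sham livers (0.67 ± 0.28 on the log2 scale, fitted difference ± SE, limma adjusted p = 0.045). It rose 1.71-fold in simvastatin sham against control sham (0.78 ± 0.28, adjusted p = 0.018). After H/R the ligated livers exceeded the controls by 0.46 ± 0.25, which did not pass (adjusted p = 0.13). Both calls depended on single arrays. Without control sham replicate 3, the low array, the ligated difference was 0.35 (adjusted p = 0.25) and the simvastatin sham difference 0.46 (adjusted p = 0.12). The ligated call was also lost without control sham replicate 2 (0.69, adjusted p = 0.058), ligated sham replicate 1 (0.63, 0.088), replicate 2 (0.66, 0.071), replicate 4 (0.55, 0.13) or replicate 5 (0.72, 0.05). It was lost, too, with only these 2 groups in the fit (adjusted p = 0.097) and with arrays centred on their medians (0.49, adjusted p = 0.13). Centring also ended the simvastatin sham call (0.56, adjusted p = 0.07).

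The comparison closest to the question of the study, simvastatin H/R against ligated H/R, gave Klf2 a 1.74-fold higher signal (0.80 ± 0.24, 95% interval 0.31 to 1.28) with an adjusted p of 0.085 over all genes. Of the 8 simvastatin arrays, 5 lay above 8.2 and 1 of the 6 ligated arrays did. Without simvastatin H/R replicate 3 the difference was 0.94 (adjusted p = 0.019), without control sham replicate 3, an array of neither group, the adjusted p was 0.035, and with array weights it was 0.93 (adjusted p = 0.0067). Over the 35 fits with 1 array left out, the difference ran from 0.70 to 0.94 and the adjusted p from 0.019 to 0.21. Only 2 of these 35 fits called it. The sample titles end in digits of unstated meaning, and in the one ending that both groups share, with 2 arrays each, Klf2 averaged 8.46 in simvastatin H/R and 7.33 in ligated H/R. Simvastatin sham against ligated sham gave a smaller difference (0.10 ± 0.28, interval −0.46 to 0.67, adjusted p = 0.93). H/R itself moved Klf2 by −0.12 in controls, −0.33 in ligated rats and 0.36 in simvastatin rats (adjusted p = 0.92, 0.73 and 0.89), and the difference between these last 2 effects was 0.69 ± 0.37 (adjusted p = 0.99).

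The 5 probe sets annotated to Klf2 did not move together. Probe set 1375248_PM_at, above background in all 6 groups at 4.17 to 4.81, was lower in ligated sham than in control sham (−0.44 ± 0.17, adjusted p = 0.039), in simvastatin sham than in control sham (−0.64 ± 0.17, adjusted p = 0.0025) and in ligated H/R than in control H/R (−0.40 ± 0.16, adjusted p = 0.041). Its means of 4.81 in both control groups lay close to their backgrounds of 4.51 (sham) and 4.59 (H/R). Of the control arrays, 4 of 5 sham and 4 of 6 H/R arrays exceeded their own background probe set. The background itself was also lower in ligated sham (3.64), simvastatin sham (3.26) and ligated H/R (4.00). Probe set 1386040_PM_at was lower too (−0.47 ± 0.16 in ligated sham against control sham, adjusted p = 0.017), with both groups at background. For 1394068_PM_x_at the same difference was −0.08 ± 0.21 and for 1386041_PM_a_at 0.12 ± 0.32, and neither passed. Averaged over its 5 probe sets, Klf2 thus changed sign, to −0.04 in ligated sham against control sham (adjusted p = 0.85) and −0.02 in simvastatin sham against control sham (adjusted p = 0.92). The rise of Klf2 with ligation is therefore a statement about its brightest probe set. In simvastatin H/R against ligated H/R, 1386041_PM_a_at differed the same way as the brightest: 4.93 ± 0.59 in simvastatin H/R (n = 8) and 3.90 ± 0.43 in ligated H/R (n = 6, at background), a difference of 1.03 ± 0.28 (adjusted p = 0.052 with every probe set a test of its own). Without simvastatin sham replicate 1, an array of neither group left out after seeing the data, its adjusted p was 0.026. That of the brightest was 0.072 in the same fit. The other 3 differed by 0.04 ± 0.15 (1375248_PM_at), 0.12 ± 0.13 (1386040_PM_at) and 0.12 ± 0.18 (1394068_PM_x_at) in that comparison, with adjusted p = 0.93, 0.77 and 0.83.

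**Figure D3:**
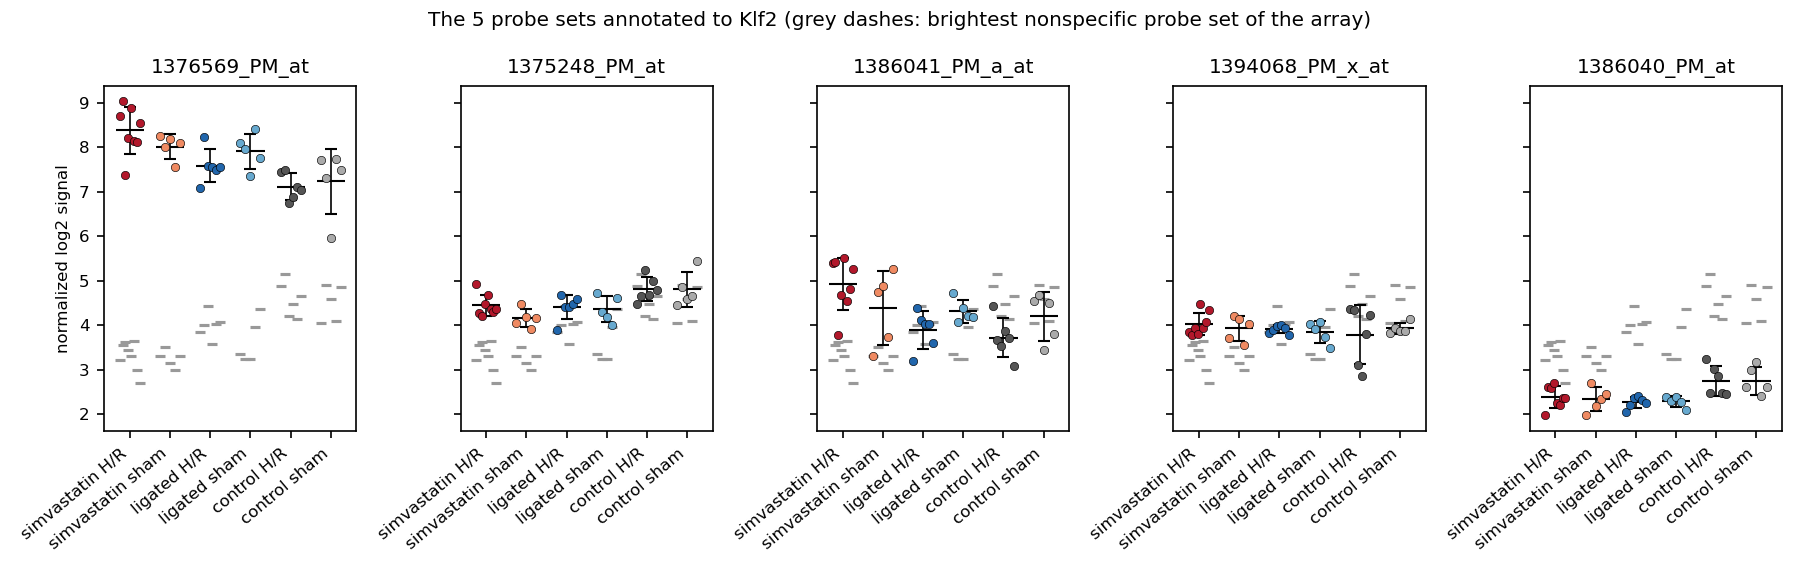
Normalized log2 signal (vertical axis) of the 5 Klf2 probe sets by group (horizontal axis); points are arrays, bars the mean ± SD, grey dashes the brightest nonspecific probe set of the array. 1376569_PM_at sits far above the dashes in every array, and 1375248_PM_at and 1386040_PM_at run the other way, with the controls highest.

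Klf4 showed a clearer step with ligation than Klf2 did. Its signal ran from 7.23 over a median of 7.61 to 8.45 in simvastatin H/R, was 7.0, 7.66, 7.72, 7.12 and 7.15 in simvastatin sham, and ran from 6.43 over 7.09 to 7.91 in ligated H/R. It was 7.28, 7.18, 7.16, 7.86 and 6.75 in ligated sham, ran from 5.72 over 6.11 to 6.67 in control H/R, and was 6.62, 6.19, 5.37, 6.56 and 5.92 in control sham. Every ligated or simvastatin sham array exceeded every control sham array, and after H/R the ligated and control ranges overlapped. Klf4 rose 2.17-fold in ligated sham against control sham (1.12 ± 0.27, adjusted p = 8e-04), 2.29-fold in simvastatin sham against control sham (1.2 ± 0.27, adjusted p = 0.00032) and 1.99-fold in ligated H/R against control H/R (0.99 ± 0.24, adjusted p = 0.0011). In the order of the group means, the step between ligated H/R (7.13 ± 0.56) and control H/R (6.14 ± 0.32) was the only one between neighbours that passed. Simvastatin H/R (7.73 ± 0.45) exceeded ligated H/R by 0.60 ± 0.23, which did not pass (adjusted p = 0.20), and simvastatin sham (7.33 ± 0.33) differed from ligated sham (7.25 ± 0.40) by 0.08 ± 0.27 (interval −0.46 to 0.62, adjusted p = 0.94). The H/R differences were 0.01 in controls, −0.12 in ligated rats and 0.40 in simvastatin rats (adjusted p = 1, 0.93 and 0.89).

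Klf4 and Edn1 are the members whose ligation difference passed in all 3 ligation comparisons, so the 250 bases before the start that the promoter table uses for each are shown here, from RefSeq on GRCr8. The stretch of Klf4 is chr5:75078593-75078842 and that of Edn1 is chr17:22666688-22666937, both on the minus strand and written 5′ to 3′ along the gene. The Edn1 stretch adjoins the 5′ end of the annotated gene, whereas the Klf4 stretch lies inside the annotated gene (chr5:75074107-75079182), so it is not the sequence before the outermost annotated start of Klf4. Capitals mark matches to the motifs searched, on either strand.
Klf4 stretch: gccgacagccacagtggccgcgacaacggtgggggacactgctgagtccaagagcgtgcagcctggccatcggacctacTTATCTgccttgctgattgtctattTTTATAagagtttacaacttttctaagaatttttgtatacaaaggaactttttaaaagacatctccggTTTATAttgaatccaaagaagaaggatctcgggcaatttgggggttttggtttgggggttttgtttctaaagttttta
Edn1 stretch: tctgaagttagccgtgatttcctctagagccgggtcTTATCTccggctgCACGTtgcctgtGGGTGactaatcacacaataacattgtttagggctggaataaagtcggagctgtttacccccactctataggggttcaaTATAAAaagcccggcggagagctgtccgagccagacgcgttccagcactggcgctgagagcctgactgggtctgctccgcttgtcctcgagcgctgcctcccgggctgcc
The motifs searched were AGATAA (for GATA factors), CACCC (the KLF core), GGGCGG (Sp1), TGANTCA (AP-1), TGACGTCA (the cyclic AMP element), ACGTG (the hypoxia element core) and TATAAA (the TATA box). The Edn1 stretch holds 1 AGATAA at −214 to −209, 1 ACGTG at −201 to −197 and 1 CACCC at −189 to −185, all on the other strand, and 1 TATAAA at −110 to −105, counted from the start the table uses. The Klf4 stretch holds 1 AGATAA at −171 to −166 and TATAAA at −146 to −141 and at −78 to −73, on the other strand, and no CACCC. None of these matches overlap. Of all 33469 rat promoters in the table, 49.2% hold CACCC, 30.5% GGGCGG, 16.6% ACGTG, 12.9% TATAAA, 10.3% AGATAA, 6.34% TGANTCA and 1.59% TGACGTCA. GC content is 56.4% in the Edn1 stretch and 43.2% in the Klf4 stretch, against a median of 51.2%.

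Edn1, which encodes the endothelin-1 precursor, had the widest range of the members. In simvastatin H/R its signal was 6.81, 7.44, 4.44, 4.77, 7.02, 6.90, 6.34 and 6.51, with replicates 3 and 4 far below the other 6. In simvastatin sham it was 4.67, 5.31, 6.20, 6.23 and 5.79. Ligated H/R livers ran from 4.44 over a median of 4.78 to 5.89, so that 6 of 8 simvastatin H/R arrays lay above all ligated H/R arrays. Ligated sham livers had 6.17, 6.33, 4.73, 7.22 and 5.88. Control H/R livers ran from 3.03 to 4.54 and control sham livers had 3.55, 3.94, 4.69, 3.50 and 3.60, at background. All ligated sham arrays exceeded all control sham arrays, by a margin of hundredths at the closest pair.

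Group means of Edn1 were 6.28 ± 1.09 in simvastatin H/R (SD, n = 8), 5.64 ± 0.66 in simvastatin sham (n = 5), 5.03 ± 0.69 in ligated H/R (n = 6), 6.07 ± 0.90 in ligated sham (n = 5), 3.81 ± 0.65 in control H/R (n = 6) and 3.86 ± 0.50 in control sham (n = 5). Since the controls lay at background, the folds are bounds against the higher, on each dim array, of the brightest nonspecific probe set and Edn1 itself. Edn1 was at least 2.92-fold higher in ligated sham than in control sham (fitted difference 2.21 ± 0.48, adjusted p = 0.00027). It was at least 2.17-fold higher in simvastatin sham than in control sham (1.78 ± 0.48, adjusted p = 0.0021) and at least 1.35-fold higher in ligated H/R than in control H/R (1.22 ± 0.44, adjusted p = 0.022). This last call was lost without control H/R replicate 2 (1.07, adjusted p = 0.055), control H/R replicate 3 (1.06, 0.058), ligated H/R replicate 2 (1.05, 0.062) or ligated H/R replicate 5 (1.04, 0.06).

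The H/R differences of Edn1 had opposite signs in ligated rats with and without simvastatin, and neither passed. It was 1.04 ± 0.46 lower in ligated H/R than in ligated sham (adjusted p = 0.43) and 0.64 ± 0.43 higher in simvastatin H/R than in simvastatin sham (adjusted p = 0.89). The difference between the effects was 1.68 ± 0.63 (95% interval 0.40 to 2.95, adjusted p = 0.81). Simvastatin H/R exceeded ligated H/R 2.38-fold (1.25 ± 0.41, adjusted p = 0.12). Without simvastatin H/R replicate 3 that difference was 1.51 (adjusted p = 0.025), and with array weights 1.48 (adjusted p = 0.0066). Over the 35 fits with 1 array left out, it ran from 1.08 to 1.51 and the adjusted p from 0.025 to 0.27. Only 1 of these 35 fits called it. In the one title ending shared by both groups Edn1 averaged 5.79 in simvastatin H/R and 4.47 in ligated H/R, with 2 arrays each. Within the 2 endings that hold both ligated H/R and ligated sham arrays, with 1 to 3 arrays a group, Edn1 differed by 0.01 and by −0.28, against −1.04 over all arrays. Simvastatin sham differed from ligated sham by −0.43 ± 0.48 (interval −1.40 to 0.54, adjusted p = 0.80).

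Thbd, a surface receptor of thrombin, varied least among the members above background. Probe set 1375951_PM_at ran from 5.89 over a median of 6.14 to 6.35 in simvastatin H/R, was 5.76, 6.65, 6.22, 5.41 and 6.03 in simvastatin sham, and ran from 5.91 over 6.34 to 6.99 in ligated H/R. It was 6.44, 6.17, 5.78, 6.20 and 6.14 in ligated sham, ran from 5.95 over 6.25 to 6.51 in control H/R, and was 5.75, 5.46, 5.83, 5.57 and 5.61 in control sham. Control sham was the low group, and 1 ligated sham array lay within its range. Thbd rose 1.42-fold in ligated sham against control sham (0.50 ± 0.18, adjusted p = 0.019). The call was lost without ligated sham replicate 1 (0.43, adjusted p = 0.062), after a second quantile normalization (0.26, adjusted p = 0.26), with arrays centred on their medians (0.32, adjusted p = 0.14) and with the mean of its 3 probe sets (0.26, adjusted p = 0.15). Simvastatin sham exceeded control sham by 0.37 ± 0.18 (adjusted p = 0.073), and this difference passed without simvastatin sham replicate 4 (0.52, adjusted p = 0.013), with array weights (0.43, adjusted p = 0.025) and with the mean of its probe sets (0.36, adjusted p = 0.041). With each array left out in turn it ran from 0.21 to 0.52, and the adjusted p from 0.013 to 0.29.

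Thbd was also the member with the smallest p for H/R in control rats. All 6 control H/R arrays lay above all 5 control sham arrays, in a comparison that called 0.856% of all genes, and the means were 6.23 ± 0.21 and 5.64 ± 0.15 (SD). The difference of 0.58 ± 0.17, or 1.5-fold, did not pass over all genes (adjusted p = 0.096). The H/R difference was 0.11 ± 0.16 in simvastatin rats and 0.26 ± 0.17 in ligated rats (adjusted p = 0.95 and 0.64), and neither passed. Simvastatin H/R (6.13 ± 0.16) was 0.27 ± 0.15 below ligated H/R (6.4 ± 0.39), with an adjusted p of 0.42. Of its other probe sets, 1368900_PM_at lay at background in all 6 groups, and 1368901_PM_at was higher in simvastatin sham than in control sham (3.39 ± 0.84 and 2.66 ± 0.18, difference 0.73 ± 0.27, adjusted p = 0.027) with at most 2 arrays of any group above their own background probe set. Without simvastatin sham replicate 1, the array with the wide 3′ to 5′ gap, that difference was 0.42 (3.07 and 2.66, adjusted p = 0.16).

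Nos3, the endothelial synthase, was read from 1371166_PM_at. Group means were 3.27 ± 0.41 in simvastatin H/R, 3.18 ± 0.39 in simvastatin sham, 3.29 ± 0.29 in ligated H/R, 3.38 ± 0.33 in ligated sham, 3.00 ± 0.23 in control H/R and 2.88 ± 0.45 in control sham. The arrays above their own background probe set were 3 of 8 in simvastatin H/R, 3 of 5 in simvastatin sham, 1 of 5 in ligated sham and 0 in the other groups. Ligated sham exceeded control sham by 0.50 ± 0.22 with both at background, so no fold is given, and the difference did not pass (adjusted p = 0.058). It passed when any of control sham replicate 1 (0.64, adjusted p = 0.02), control sham replicate 4 (0.60, 0.033), ligated sham replicate 3 (0.60, 0.028), simvastatin sham replicate 4 (0.50, 0.048) or simvastatin H/R replicate 2 (0.50, 0.045) was left out, with array weights (0.56, 0.041) and after a second quantile normalization (0.56, 0.029). With each array left out in turn it ran from 0.40 to 0.64, and the adjusted p from 0.02 to 0.16. Simvastatin H/R against ligated H/R gave −0.02 ± 0.19 (interval −0.40 to 0.36, adjusted p = 0.98), and simvastatin sham against ligated sham −0.20 ± 0.22 (interval −0.64 to 0.25, adjusted p = 0.79).

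Nos2, the inducible synthase, was read from 1387667_PM_at and exceeded the background probe set on none of the 35 arrays. Its means were 2.41 ± 0.15 in simvastatin H/R, 2.39 ± 0.14 in simvastatin sham, 2.56 ± 0.15 in ligated H/R, 2.29 ± 0.08 in ligated sham, 2.82 ± 0.29 in control H/R and 2.95 ± 0.59 in control sham. The fit called it lower in ligated sham than in control sham (−0.66 ± 0.17, adjusted p = 0.0019) and in simvastatin sham than in control sham (−0.56 ± 0.17, adjusted p = 0.0062). Both groups were at background in both calls, and the background probe sets moved the same way, 3.64 in ligated sham and 3.26 in simvastatin sham against 4.51 in control sham. Ligated H/R against ligated sham gave 0.28 ± 0.16 (adjusted p = 0.58). With arrays centred on their medians, ligated H/R was also called lower than control H/R (−0.41, adjusted p = 0.031).

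Genes around the nitric oxide synthases were called about as often as all genes in ligated sham against control sham. They were called more often in the other ligation comparisons. In simvastatin sham against control sham 8 of 23 rose and 7 fell, beside 55.1% of all genes called. In ligated H/R against control H/R 9 of 23 rose and 8 fell, beside 47% of all genes called. Of 23 measured genes of nitric oxide synthesis and response, 6 rose and 5 fell in ligated sham against control sham livers, where 25.3% of all genes rose and 22.4% fell, with a median difference of 0.03, beside −0.04 over all genes. Gch1, which makes the first step towards the cofactor tetrahydrobiopterin, averaged 8.54 ± 0.36 in ligated sham and 10.16 ± 0.12 in control sham (SD, n = 5 each) and fell 3.07-fold (adjusted p = 2.1e-08). Gchfr, its feedback regulator, fell 2.03-fold (7.37 and 8.39, adjusted p = 2.3e-06). Cav1, caveolin-1, which binds and holds the endothelial synthase inactive, rose 7.12-fold (7.40 and 4.57, adjusted p = 1.1e-07), and Ddah2 rose 6.09-fold (7.25 and 4.65, adjusted p = 2.5e-07). Both control sham means lay close to the control sham background of 4.51, so these 2 folds rest on control signals near background. In simvastatin H/R against ligated H/R none of the 23 passed (median 0.11, beside 0 over all genes). Cav1 had 7.71 ± 0.78 in simvastatin H/R and 6.82 ± 0.61 in ligated H/R (difference 0.88 ± 0.31, adjusted p = 0.16). Arg2, an arginase that competes for the same substrate, had 4.84 and 4.13 (0.71 ± 0.22, adjusted p = 0.11).

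Of 16 measured genes of endothelin processing and signalling besides Edn1, 5 rose and 1 fell in ligated sham against control sham, beside the same 25.3% and 22.4% of all genes, with a median difference of 0.11. Mylk, the myosin light chain kinase of contraction, rose 3.46-fold (10.32 in ligated sham and 8.53 in control sham, adjusted p = 4.1e-11). Plcb4, a phospholipase C of Gq-coupled receptors, rose 7.82-fold (7.92 and 4.95, adjusted p = 2.7e-12). Mme, neprilysin, a peptidase that cleaves endothelin-1, was at least 4.37-fold higher (6.72 and 4.01, the second at background, adjusted p = 1.3e-05). Rhoa, a small GTPase of contraction that is prenylated by products of the pathway statins block, rose 1.53-fold (9.89 and 9.27, adjusted p = 0.00017). It was also the 1 gene of this list that a simvastatin comparison called: 9.30 ± 0.30 in simvastatin sham and 9.89 ± 0.19 in ligated sham, a fall of 1.5-fold (difference −0.59 ± 0.13, adjusted p = 0.013). After H/R it had 9.72 ± 0.15 in simvastatin rats and 10.00 ± 0.27 in ligated rats (−0.27 ± 0.11, adjusted p = 0.22).

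Of 27 measured relatives, inducers and targets of KLF2 besides the members, 11 rose and 2 fell in ligated sham against control sham (median 0.40, beside −0.04 over all genes, of which 25.3% rose and 22.4% fell). Klf5, a growth-related relative, rose 10.1-fold (7.84 and 4.51, adjusted p = 1.3e-13) and Klf3, a repressor of the family, 2.87-fold (7.77 and 6.25, adjusted p = 1.9e-10). The control sham mean of Klf5 lay at the edge of the control sham background of 4.51, so its fold rests on a control signal near background. Plat, tissue plasminogen activator, rose 4.99-fold (8.34 and 6.02, adjusted p = 6.4e-09), and Ptgds, a prostaglandin D synthase that KLF2 is known to raise in endothelium, was at least 3.20-fold higher, with control sham at background (adjusted p = 3.1e-11). Procr, the endothelial receptor of protein C that works beside thrombomodulin, was the 1 gene of this list called for H/R in ligated rats. It averaged 8.26 ± 0.43 in ligated H/R and 7.02 ± 0.56 in ligated sham, 2.37-fold higher (1.24 ± 0.26, adjusted p = 0.03). Klf11 was the 1 gene of the list called for simvastatin after H/R, with 7.32 ± 0.39 in simvastatin H/R and 6.73 ± 0.14 in ligated H/R, 1.5-fold higher (0.59 ± 0.14, adjusted p = 0.025).

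**Figure D4:**
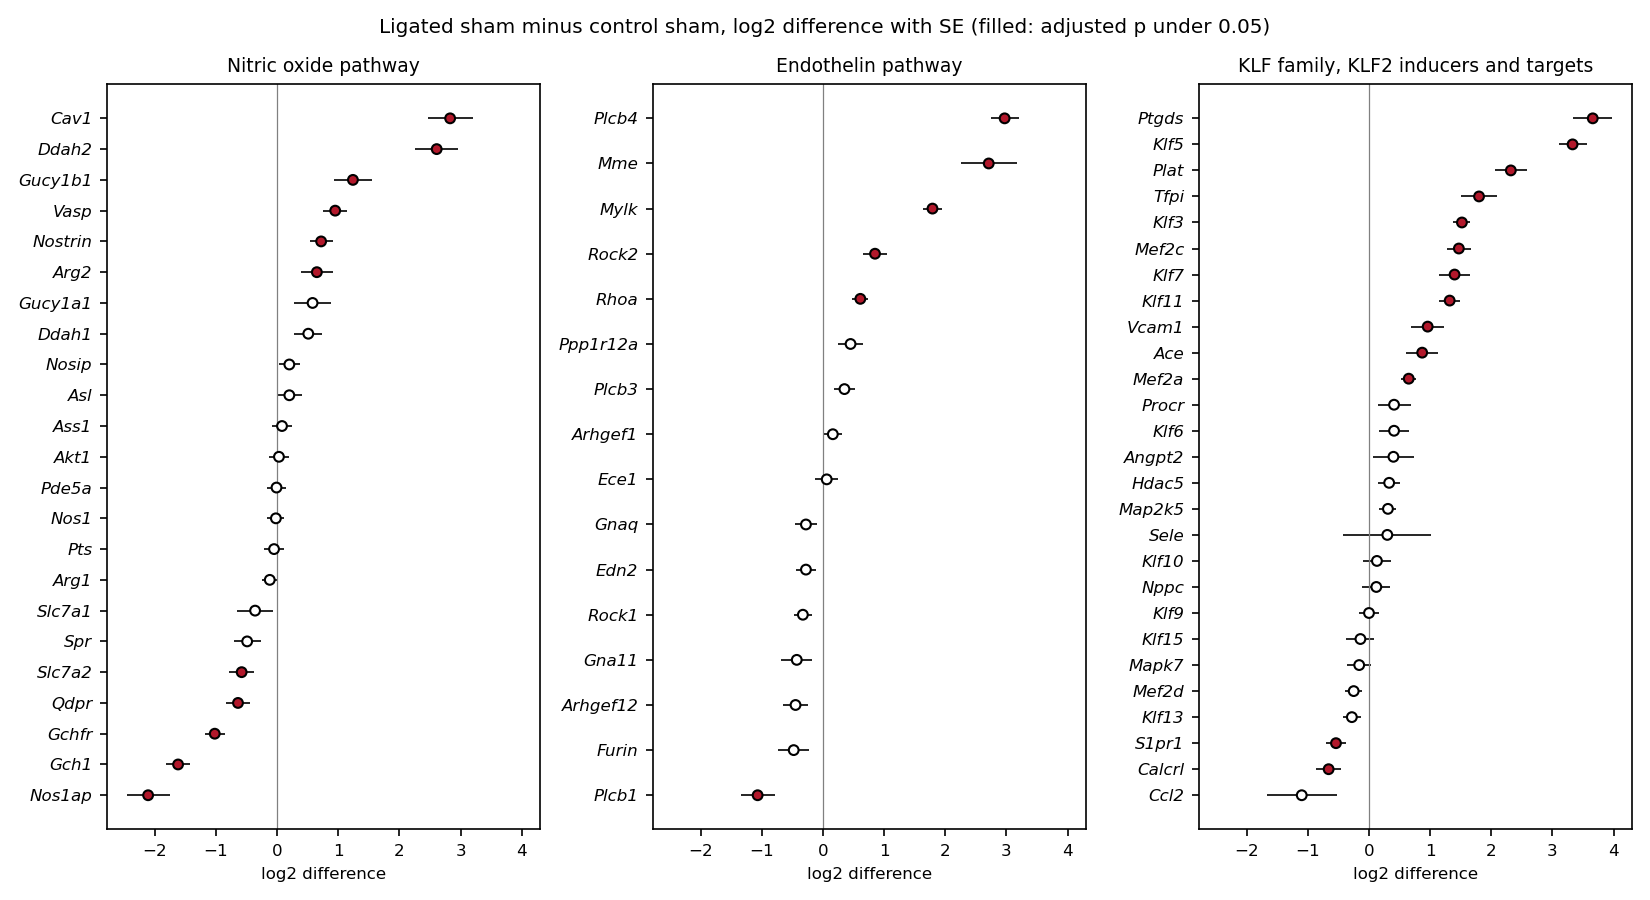
Log2 difference, ligated sham minus control sham, with its SE (horizontal axis) for the measured genes of 3 pathway lists (vertical axis), members left out; filled points have an adjusted p under 0.05. The nitric oxide list spreads to both sides, with Cav1 highest, and the KLF list has 11 filled points to the right and 2 to the left.

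Inducers of Nos2 and their early targets gave 1 gene higher and 4 lower of 11 with ligation in sham rats. Of all genes, 25.3% were higher and 22.4% lower in that comparison. The median difference was −0.69, beside −0.04 over all genes. Il1b, interleukin-1 beta, averaged 10.66 ± 0.39 in ligated H/R and 8.38 ± 1.23 in ligated sham and rose 4.86-fold with H/R (2.28 ± 0.46, adjusted p = 0.023). It was 9.05 ± 1.09 in simvastatin H/R, which was 3.06-fold lower than ligated H/R (−1.61 ± 0.41, adjusted p = 0.038). Nos2 stayed at background in all of these groups.

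Markers of liver cell types also passed with ligation, in counts to be read beside the 25.3% of all genes that rose and the 22.4% that fell. Of 18 measured endothelial markers, 8 rose and 3 fell in ligated sham against control sham (median 0.49), among them Vwf, von Willebrand factor of larger vessels (at least 2.07-fold higher), and Kdr, a VEGF receptor of sinusoidal endothelium (2.06-fold lower). Vwf, Tie1 and Flt1 lay at background in both control groups. The log2 of the summed signal of all 18 endothelial markers ran over 10.56 to 11.09 in simvastatin H/R, 10.78 to 11.23 in simvastatin sham, 10.84 to 11.24 in ligated H/R, 10.67 to 11.11 in ligated sham, 10.64 to 10.84 in control H/R and 10.59 to 10.88 in control sham. Of 15 stellate, myofibroblast and smooth muscle markers 11 rose and none fell (median 0.88). Their summed signal was 12.16 to 12.75 in simvastatin H/R, 11.91 to 12.97 in simvastatin sham, 12.31 to 12.87 in ligated H/R and 12.20 to 12.86 in ligated sham, against 10.71 to 11.14 in control H/R and 10.85 to 11.07 in control sham. Des, Col1a1, Myh11 and Lum were at background in both control groups, and Cnn1 was at background in all 6 groups.

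Of 8 cholangiocyte markers 7 rose (median 4.08). Krt7, Muc1 and Cldn7 were at background in the controls, and Sox9 was at background in all 6 groups. Their summed signal was 11.77 to 12.96 in simvastatin H/R, 12.01 to 12.91 in simvastatin sham, 11.91 to 12.62 in ligated H/R, 11.60 to 12.88 in ligated sham, 7.97 to 9.05 in control H/R and 8.09 to 8.42 in control sham. Of 14 macrophage and neutrophil markers 5 rose and 1 fell (median 0.37), with sums of 12.58 to 13.07 in simvastatin H/R, 12.45 to 13.48 in simvastatin sham, 12.50 to 13.92 in ligated H/R, 12.41 to 13.01 in ligated sham, 11.62 to 12.32 in control H/R and 10.94 to 12.04 in control sham, and Cxcr2 at background throughout. Of 9 hepatocyte markers none rose and 3 fell (median −0.25), none was at background in any group, and their sums were 15.56 to 15.83 in simvastatin H/R, 15.34 to 15.73 in simvastatin sham, 15.47 to 15.80 in ligated H/R, 15.63 to 15.83 in ligated sham, 15.86 to 15.94 in control H/R and 15.88 to 15.95 in control sham. The part of these shifts in the ligation differences of Klf2, Klf4, Thbd and Edn1 was not tested. In simvastatin H/R against ligated H/R none of the endothelial, macrophage, cholangiocyte or hepatocyte markers passed, and 1 stellate marker did: Col1a1, a collagen of scar tissue, was 1.89-fold lower (−0.92, adjusted p = 0.02).

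The genes whose signal followed each member most closely from array to array were looked up among all genes tested. The measure of likeness was Pearson's correlation over the 35 arrays after each group's mean was subtracted. The arrays of a group share a label and the members share each array, so the values are given as a description. Klf4 was the gene most like Klf2 among all tested (r = 0.65, Spearman's rank correlation 0.68, r = 0.61 without the 2 arrays of most extreme Klf4), followed by Cstpp1 (r = 0.64) and Irak1bp1 (r = 0.64, which dropped to 0.36 without 2 arrays). Over the 6 group means the correlation of Klf2 and Klf4 was 0.96. The genes most like Klf4 were Fosb, an immediate early transcription factor (r = 0.73), and Gdf15, a stress cytokine (r = 0.68, but −0.78 over the group means, where Gdf15 was highest in the controls), followed by Klf2.

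The genes most like Edn1 were Filip1l (r = 0.87), Ccn1, a matricellular protein of the YAP and serum response (r = 0.86), and Dact1, a Wnt pathway regulator (r = 0.86), at 0.82, 0.81 and 0.80 without 2 arrays. Over the group means they gave 0.93, 0.97 and 0.98. Ccn1 rose with ligation as Edn1 did, 3.90-fold in ligated sham against control sham (8.28 ± 0.68 and 6.32 ± 0.44, adjusted p = 0.00086). In simvastatin H/R against ligated H/R it was 8.07 ± 1.21 and 7.69 ± 0.73 (0.38 ± 0.40, adjusted p = 0.73). Edn1 and Klf2 correlated at r = 0.35 over the 35 arrays, and 872 genes had a higher correlation with Klf2. Within groups of 6 or more arrays Edn1 and Klf2 correlated at 0.81 in simvastatin H/R (n = 8), 0.61 in ligated H/R (n = 6) and 0.22 in control H/R (n = 6), and Klf2 and Klf4 at 0.51, 0.86 and 0.46 in the same groups. Without the 2 arrays of most extreme Klf2 in each group, Edn1 and Klf2 gave 0.48, −0.86 and 0.77. Klf2 and Klf4 then gave 0.85, 0.46 and −0.43. Some values rose and others fell, so with so few arrays these within-group correlations are not stable. Edn1 and Ccn1 correlated at 0.95, 0.84 and 0.94 in those groups. The genes most like Thbd were Plekhb2 (r = 0.80), Il2rg, the shared cytokine receptor chain (r = 0.66), and Procr (r = 0.64). Thbd and Klf2 correlated at r = 0.07.

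**Figure D5:**
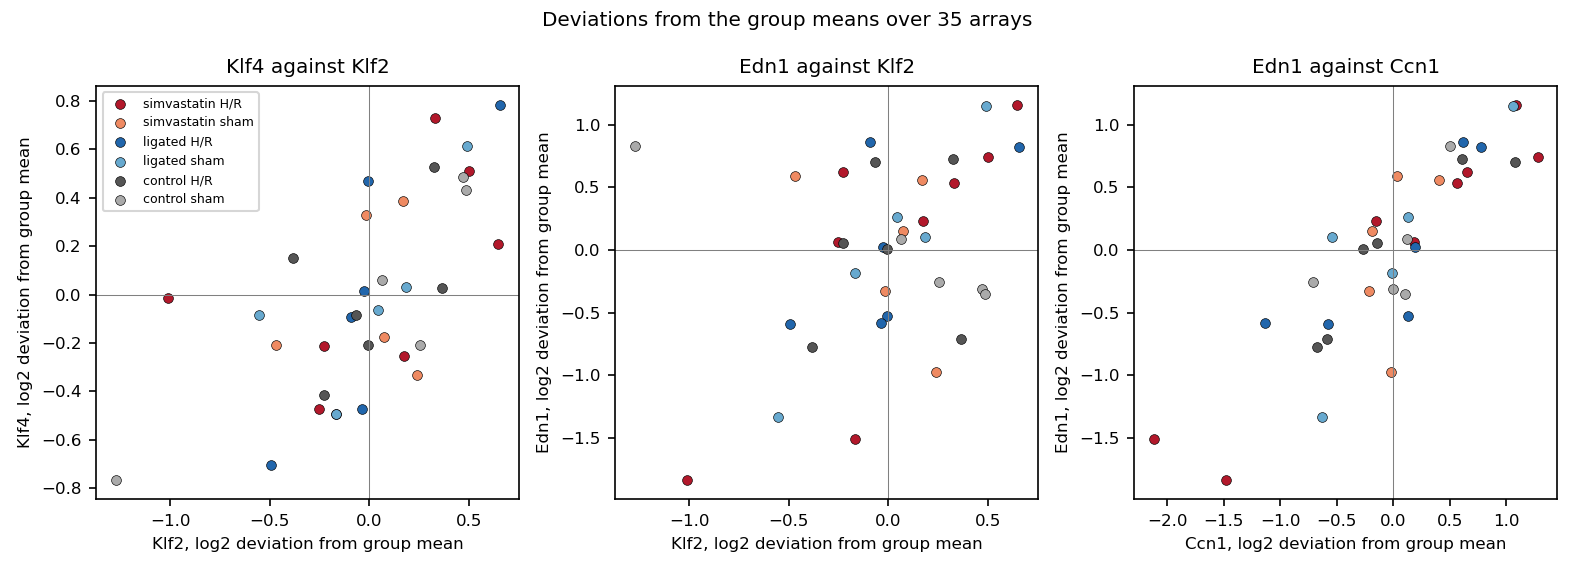
Log2 deviation of each of 35 arrays from its own group mean, for Klf4 (vertical) against Klf2 (horizontal), Edn1 against Klf2 and Edn1 against Ccn1; colours are the 6 groups. The points of Edn1 follow Ccn1 (r = 0.86) and spread widely against Klf2 (r = 0.35), and the Klf2 value farthest to the left is a control sham array.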

How the data were processed

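Liver RNA of 35 rat samples was measured on 35 Affymetrix arrays of perfect-match probe sets, 1 array a sample. The values are log2 signals as deposited by the authors, from 1.51 to 13.79. The authors' background correction and normalization are not given in the sources used here; per the labels' protocols the labelling followed the standard Affymetrix procedure (the extraction text describes histology). The number of arrays limits the precision. Groups came from the treatment group label. Of 31139 probe sets, 19063 carried 1 gene symbol in the platform annotation, 572 carried several and were not used. Each gene was represented by its brightest probe set (by the mean of 35 arrays), giving 13438 genes. limma 3.58.1 in R 4.3.3 fitted 1 mean per group over all arrays (lmFit, eBayes), with Benjamini-Hochberg adjustment over all genes and a threshold of 0.05; the code was tested on simulated data. The members and the 10 gene lists (149 of 171 entries measured) were chosen with earlier results of these data known, and the result of 1 list is not reported here. All members were named, the 4 list genes of smallest p per list and comparison, or fewer, and the 3 genes most like each member above background. No 2 arrays were identical (highest correlation 0.992). Promoters came from RefSeq tables of GRCr8, by gene symbol and ID, with an entry for 5 of the 8 genes. Alternatives covered the samples in the fit, eBayes with trend, array weights, a filter at the 30th percentile, another quantile normalization, median centring, the mean of probe sets, the title ending as a block and each array left out in turn. The levels and tests of Ednra and Ednrb are not analysed here.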

Additional observations from a re-analysis of the deposited data

Results flagged for a closer look

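Of 36 groups of a gene (6 genes in 6 groups of 5 to 8 arrays), 1 held an array farther from the others than Dixon's 95% critical value allows, and chance gives about 5% of such groups. Klf2 in control sham replicate 3 was 5.97, while the next array of the group was 7.31. The gap was 0.76 of the group's range, against a critical value of 0.71 for 5 arrays.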

How the results depend on the processing

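Of 2584 member differences recomputed under 9 kinds of alternative and with each array left out in turn, 2544 kept their direction or stayed uncalled on the same side of the threshold, 21 lost their call, 17 gained one and 2 reversed. In 38 uncalled differences the sign changed. Most member differences were uncalled in the main fit, and 2100 of the values came from fits without 1 array. The total therefore says little about how firm the calls are. The Klf2 call in ligated sham minus control sham was lost in 6 of the 35 fits without 1 array. The 2 reversals were those of Klf2 with the mean of all its probe sets, −0.04 in ligated sham minus control sham and −0.02 in simvastatin sham minus control sham. The count of 5 members in ligated sham minus control sham was 3 with arrays centred on the median and 3 with the mean of all probe sets, and the count of 0 in simvastatin H/R minus ligated H/R was 2 (Klf2 and Edn1) with array weights. With each array left out, the counts ranged from 3 to 6 in ligated sham minus control sham, 3 to 5 in simvastatin sham minus control sham, 1 to 2 in ligated H/R minus control H/R and 0 to 2 in simvastatin H/R minus ligated H/R, and were 0 in the other comparisons. Median centring moved the median of all genes by −0.19 (to −0.23) in ligated sham minus control sham, −0.21 (to −0.26) in simvastatin sham minus control sham and −0.15 (to −0.19) in ligated H/R minus control H/R. A second quantile normalization ended the Klf2 call in ligated sham minus control sham (0.63, adjusted p = 0.061) and, like the fit on 2 groups alone, the Nos2 call in simvastatin sham minus control sham (adjusted p = 0.068 in both). The causes were not tested. The filter at the 30th percentile left no value for Nos2 and Nos3.

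No paired analysis was possible because the labels give the groups no shared replicate numbers, and the numbers used here only follow accession order. The last 2 digits of the titles, whose meaning the labels do not give, were tried as a block among the ligated groups only. The block covered H/R in ligated rats, H/R in simvastatin rats, the difference of these effects, and simvastatin H/R against ligated H/R. All 24 member differences stayed uncalled, with 3 changes of sign. No member was called there without the block either, so the block puts none of the calls against controls to a test. Simvastatin sham and control sham share an ending but were not fitted with the block. Controls and untreated ligated rats have no ending in common, nor do the simvastatin sham and ligated sham groups, so ending and group cannot be told apart in those comparisons.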
